A study of Mus musculus with 3 samples.

Results

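The antioxidant genes under control of NRF2 and the metallothionein genes were followed across the 3 epidermal arrays of the study. They are 10 of 24011 genes with a symbol on the arrays, 7 of them antioxidant genes (Nqo1, Hmox1, Gclc, Gclm, Txnrd1, Srxn1 and Slc7a11) and 3 metallothionein genes (Mt1, Mt2 and Mt4). They were taken by symbol from the ENTREZ row identifiers (in the order above 18104, 15368, 14629, 14630, 50493, 76650 and 26570, then 17748, 17750 and 17752), and every one of the 10 was measured. On each array, each of them lay above the median signal of all genes.

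NRF2, encoded by Nfe2l2, is a transcription factor that KEAP1 and the cullin-3 ubiquitin ligase keep at a low level in unstressed cells. Oxidants and electrophiles modify KEAP1, after which NRF2 accumulates, pairs with small MAF proteins and binds antioxidant response elements of genes for glutathione synthesis, thioredoxin reduction and detoxification. Metallothioneins are small cysteine-rich proteins that bind zinc and copper, and zinc induces Mt1 and Mt2 through the factor MTF-1 and its metal response elements. In skin, NRF2 helps keratinocytes withstand ultraviolet light and reactive oxygen species, and mouse Mt4 is a metallothionein of differentiating stratified squamous epithelia.

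The genotypes were cFLIPKO (cFLIP fl/fl-K14CreER tam), cFLIPKO/TNFKO (the same alleles with TNF-/-) and TNFKO (TNF-/-, with cFLIP intact). In both cFLIP-deficient genotypes, a tamoxifen-activated Cre under the keratin 14 promoter excises the floxed gene of cFLIP, a regulator of caspase-8, in keratinocytes, and tamoxifen was put on the epilated back skin of all 3 genotypes. The methods give skin taken 72 h after tamoxifen was first applied, 3 to 6 animals per pool and 3 to 5 days of tamoxifen, while the labels give 4 animals and 3 days. Each genotype is 1 array of pooled RNA with no replicate, so no test was possible and every direction given is that of single arrays. No wild-type array was used, and the methods do not list Cre in TNFKO mice, so a difference that both cFLIP-deficient genotypes show against TNFKO cannot be told apart from one of Cre, and cFLIPKO and TNFKO differ in both genes. The sources used here give neither the age nor the sex of the mice.

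The SD of the log2 difference over all genes was 0.68 for cFLIPKO against TNFKO and 0.22 for cFLIPKO/TNFKO against TNFKO. The values of cFLIPKO/TNFKO and TNFKO were exactly equal for 52.6% of genes. Those of cFLIPKO and TNFKO were equal for 23.2%, and those of cFLIPKO and cFLIPKO/TNFKO for 23.8%. Equal values are named as such. The reason for so many ties was not tested, so an equal value is not a measured absence of change. The 9305 genes with a mean signal within the range of the 10 genes had a median difference from TNFKO of -0.29 in cFLIPKO and 0.00 in cFLIPKO/TNFKO. Each difference was therefore also taken under 4 other scalings, namely by Actb, by 8 reference genes, after a lowess trend on signal was subtracted and after repeated quantile normalization. The log2 signal of Cflar, which encodes cFLIP, was 6.29 in cFLIPKO, 6.53 in cFLIPKO/TNFKO and 7.002 in TNFKO epidermis, although the sources used here do not place its probes relative to the excised exons. Krt5, a keratin of basal keratinocytes, was at 12.50, 13.02 and 12.93 in the same order, and Col1a1, a collagen of fibroblasts, at 11.68, 11.33 and 11.18.

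The promoter windows of 5 genes are shown because these genes carry the differences described further on, or share a family with one that does. Slc7a11 and Mt4 had the largest differences of the 10 genes, Gclm followed, and Mt1 and Mt2 are the relatives of Mt4. The windows come from RefSeq (GRCm38.p6), run from 250 bases before to 50 bases after the start of the gene and are written 5′ to 3′ on the strand of the gene. Capitals mark antioxidant response element cores, searched as TGACNNNGC and TGAGNNNGC, and metal response element cores, searched as TGCACNC and TGCGCNC, on both strands. In the order of the sequences, the windows lie at chr3:50443564-50443863 (minus strand), chr3:122245307-122245606, chr8:94178839-94179138, chr8:94172368-94172667 and chr8:94136954-94137253 (plus strand for these 4).
Slc7a11: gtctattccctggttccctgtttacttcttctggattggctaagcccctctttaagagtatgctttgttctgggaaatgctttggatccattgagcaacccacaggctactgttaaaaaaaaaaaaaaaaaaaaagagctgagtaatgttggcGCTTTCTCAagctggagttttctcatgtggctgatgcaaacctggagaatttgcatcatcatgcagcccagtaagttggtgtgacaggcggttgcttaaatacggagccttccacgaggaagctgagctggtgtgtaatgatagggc
Gclm: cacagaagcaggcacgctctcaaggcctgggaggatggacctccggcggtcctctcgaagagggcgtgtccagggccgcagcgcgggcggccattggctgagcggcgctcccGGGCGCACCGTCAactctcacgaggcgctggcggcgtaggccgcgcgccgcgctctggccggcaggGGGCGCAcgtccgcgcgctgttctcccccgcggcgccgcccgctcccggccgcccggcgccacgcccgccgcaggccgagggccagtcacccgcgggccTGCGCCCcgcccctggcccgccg
Mt1: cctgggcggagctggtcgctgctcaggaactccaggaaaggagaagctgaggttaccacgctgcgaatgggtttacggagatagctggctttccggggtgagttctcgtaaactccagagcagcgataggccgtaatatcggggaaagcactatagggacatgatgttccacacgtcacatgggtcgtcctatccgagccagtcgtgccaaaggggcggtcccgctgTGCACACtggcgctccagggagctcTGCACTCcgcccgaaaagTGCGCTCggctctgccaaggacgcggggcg
Mt2: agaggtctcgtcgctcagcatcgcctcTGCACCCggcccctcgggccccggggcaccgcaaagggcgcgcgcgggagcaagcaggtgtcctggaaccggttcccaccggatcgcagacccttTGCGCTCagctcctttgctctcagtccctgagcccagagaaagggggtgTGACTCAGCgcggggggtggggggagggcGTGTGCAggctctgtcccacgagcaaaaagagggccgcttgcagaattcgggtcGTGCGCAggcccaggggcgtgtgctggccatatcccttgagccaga
Mt4: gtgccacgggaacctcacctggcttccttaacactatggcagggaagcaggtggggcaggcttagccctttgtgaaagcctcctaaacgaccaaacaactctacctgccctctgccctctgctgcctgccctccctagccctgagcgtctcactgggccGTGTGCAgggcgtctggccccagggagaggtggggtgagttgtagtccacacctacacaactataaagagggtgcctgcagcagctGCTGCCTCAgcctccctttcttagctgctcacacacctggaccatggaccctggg

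The windows of Mt1 and Gclm each held 3 metal response element cores and that of Mt2 held 4, those of Mt4 and Srxn1 each held 1, and those of Slc7a11, Nqo1 and Txnrd1 held none. At least 3 such cores stood in 1.97% of all 32851 windows of this length, and at least 1 stood in 25.7%. An antioxidant response element core stood once each in the windows of Slc7a11, Gclm, Mt2 and Mt4, 3 times in that of Srxn1, once in 1 of 3 windows of Txnrd1 and not in those of Mt1 and Nqo1, and 27.8% of all windows held at least 1. In Gclm, the antioxidant core at bases 117 to 125 overlaps a metal core at bases 113 to 119. In Mt2, the antioxidant core at bases 172 to 180 contains an AP-1 site, searched as TGACTCA and TGAGTCA, which 5.2% of all windows held. The antioxidant core of Srxn1 at bases 206 to 214 also contains an AP-1 site, and another AP-1 site lies at bases 149 to 155. Of the 10 genes, 8 matched the table, and Hmox1 and Gclc did not. A match of letters describes these windows and is not a measured binding site.

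None of the 10 genes differed by 2-fold between any pair of genotypes as deposited. Against TNFKO, 0 of 10 were at least 2-fold higher in cFLIPKO, where 3.88% of all genes were, and 0 were at least 2-fold lower, where 9.15% were. In cFLIPKO/TNFKO against TNFKO, 0 were higher and 0 lower, beside 0.629% and 0.225% of all genes. Between cFLIPKO and cFLIPKO/TNFKO, 0 were higher and 0 lower in cFLIPKO, beside 3.32% and 8.07%. The median difference of the 10 genes was -0.23 in cFLIPKO and 0.00 in cFLIPKO/TNFKO against TNFKO, where the median of all genes was 0.00 in both. The -0.23 turned to 0.07 with reference genes, 0.29 with the lowess trend removed and 0.22 in the repeated quantile normalization, so no common direction was measured in cFLIPKO. As the RNA is of whole epidermis, fewer cells of a type and less RNA per cell cannot be told apart.

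At a threshold of 1.5-fold, Gclm and Mt4 were lower in cFLIPKO than in TNFKO (2 of 10, beside 15.5% of all genes), and none was higher (10.7% of all genes). Slc7a11 and Mt4 were at least 1.5-fold lower in cFLIPKO/TNFKO than in TNFKO, which is 2 of 10 beside 1.04% of all genes, and 0 were higher, beside 1.48%. Between cFLIPKO and cFLIPKO/TNFKO, Slc7a11 was at least 1.5-fold higher in cFLIPKO (1 of 10, beside 10.1%) and Gclm at least 1.5-fold lower (1 of 10, beside 15.3%). The plot of log2 signals by array shows these 3 genes with the widest spread between genotypes.

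**Figure D1:**
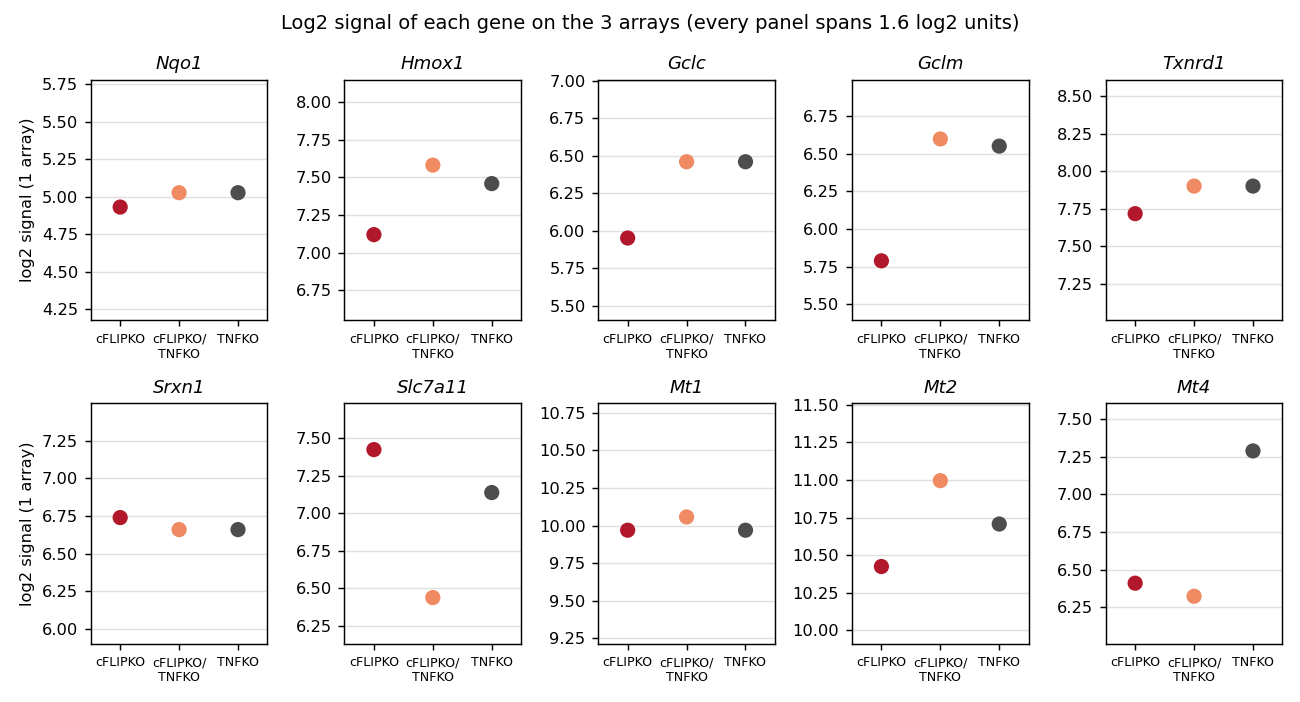
Log2 signal (vertical axis, arbitrary array units on a log2 scale) of each of the 10 genes in cFLIPKO, cFLIPKO/TNFKO and TNFKO epidermis (horizontal axis). Each point is 1 array, there are no error bars because no genotype was repeated, and all panels span the same number of log2 units. Mt4 is highest in TNFKO, at 7.29, and Slc7a11 is lowest in cFLIPKO/TNFKO, at 6.44.

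Slc7a11 encodes xCT, the light chain of the transporter that imports cystine in exchange for glutamate and so supplies cysteine for glutathione. Its log2 signal was 7.42 in cFLIPKO, 6.44 in cFLIPKO/TNFKO and 7.14 in TNFKO epidermis. The cFLIPKO/TNFKO array was the low one, and the other arrays lay close together. The difference from TNFKO was 0.29 in cFLIPKO and -0.70 (1.62-fold lower) in cFLIPKO/TNFKO, and this second value was the 146th lowest of 24011 genes in that comparison. Between cFLIPKO and cFLIPKO/TNFKO, the difference was 0.99, which is 1.98-fold and just short of 2-fold. It passed 2-fold under each of the other scalings, at 1.40 with the lowess trend removed, 1.56 after repeated quantile normalization, 1.34 by reference genes and 1.55 by Actb. The last 2 scalings move every gene by a constant, here 0.35 and 0.56, and relative to that constant the difference was again 0.99. The sign of all 3 differences of Slc7a11 was the same under all 5 scalings, from 0.29 to 0.93 for cFLIPKO and from -1.22 to -0.63 for cFLIPKO/TNFKO against TNFKO. As deposited, Slc3a2, whose product is the heavy chain of the same transporter, did not share this order, with 8.36 in cFLIPKO, 8.63 in cFLIPKO/TNFKO and 8.46 in TNFKO. Its difference between cFLIPKO and cFLIPKO/TNFKO, -0.27, turned with the scaling. It was 0.29 by Actb, 0.08 by reference genes, 0.38 with the lowess trend removed and 0.40 after repeated quantile normalization. Chac1, whose product degrades glutathione, was higher in cFLIPKO, with 6.88 against 5.996 in cFLIPKO/TNFKO and 6.05 in TNFKO, a difference from TNFKO of 0.83 in cFLIPKO and -0.05 in cFLIPKO/TNFKO. Chac1 passed 2-fold by reference genes (1.13), with the lowess trend removed (1.11) and after repeated quantile normalization (1.31). The glutamine transporter gene Slc1a5 differed from TNFKO by 0.34 in both.

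Gclc and Gclm encode the catalytic and the modifier subunit of glutamate-cysteine ligase, which catalyses the first step of glutathione synthesis. Gclm had a log2 signal of 5.79 in cFLIPKO, 6.60 in cFLIPKO/TNFKO and 6.55 in TNFKO. Gclc had 5.95 in cFLIPKO and an equal value of 6.46 in cFLIPKO/TNFKO and TNFKO. Both subunits were therefore lowest on the cFLIPKO array, by 0.76 (1.70-fold) for Gclm and 0.51 (1.42-fold) for Gclc against TNFKO. Under the 5 scalings the difference of Gclm in cFLIPKO ran from -0.76 to -0.46 and that of Gclc from -0.51 to -0.21, below 0 in each, beside the median of -0.29 for genes of like signal. Between cFLIPKO and cFLIPKO/TNFKO, Gclm was at -0.81 and stayed below 0 under each scaling, with -0.25 by Actb as the value nearest to 0, whereas Gclc was at -0.51 and turned to 0.05 by Actb. Gss, the synthetase of the second step, had an equal value of 5.15 on all 3 arrays, and Gsr, the reductase that regenerates glutathione, was at 7.47 on each.

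Txnrd1 and Srxn1 serve the thioredoxin and peroxiredoxin cycle, Txnrd1 as thioredoxin reductase and Srxn1 as sulfiredoxin, which restores overoxidised peroxiredoxins. Txnrd1 had a log2 signal of 7.72 in cFLIPKO and an equal value of 7.90 in cFLIPKO/TNFKO and TNFKO. Srxn1 had 6.74 in cFLIPKO and an equal value of 6.66 in the other genotypes. The difference in cFLIPKO was thus -0.18 for Txnrd1 and 0.08 for Srxn1, 1.14-fold lower and 1.06-fold higher. Srxn1 was above 0 under all 5 scalings (0.08 to 0.58), while the sign of Txnrd1 turned, to 0.54 after repeated quantile normalization.

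Nqo1 encodes a quinone reductase and Hmox1 the inducible heme oxygenase, and both are widely used as readouts of NRF2. Nqo1 had a log2 signal of 4.93 in cFLIPKO and an equal value of 5.03 in cFLIPKO/TNFKO and TNFKO, a difference of -0.10 whose sign turned with the scaling (-0.26 to 0.20). Hmox1 had 7.12 in cFLIPKO, 7.58 in cFLIPKO/TNFKO and 7.46 in TNFKO. Its difference from TNFKO was -0.34 in cFLIPKO and 0.12 in cFLIPKO/TNFKO, and both signs turned with the scaling, to 0.32 after repeated quantile normalization and to -0.40 by Actb. Macrophages, which also express Hmox1, had 7 of 8 listed markers on the arrays. Of these, 3 were at least 2-fold higher in cFLIPKO and 2 in cFLIPKO/TNFKO than in TNFKO, beside 3.88% and 0.629% of all genes. In cFLIPKO against TNFKO, Cd14 was at 2.88, Fcgr1 at 1.44, Mrc1 at 1.26, Cd68 at 0.97 and Cd163 at 0.05, while Adgre1 and Csf1r were equal. The mean log2 signal of the 7 markers was 7.81 in cFLIPKO, 7.58 in cFLIPKO/TNFKO and 6.87 in TNFKO, and their part in the level of Hmox1 was not tested.

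Among the metallothioneins, Mt4 differed from Mt1 and Mt2. Mt4 had a log2 signal of 6.41 in cFLIPKO, 6.32 in cFLIPKO/TNFKO and 7.29 in TNFKO, so both cFLIP-deficient genotypes were low. As deposited they were nearly level with each other, with cFLIPKO higher by 0.09. Under the 4 other scalings cFLIPKO was higher than cFLIPKO/TNFKO by 0.34 to 0.65. The difference from TNFKO was -0.88 (1.84-fold lower) in cFLIPKO and -0.97 (1.96-fold lower) in cFLIPKO/TNFKO. In the second of these comparisons Mt4 was the 60th lowest of 24011 genes, and in the first it was the 2615th lowest. Under the 5 scalings Mt4 stayed below 0 against TNFKO, from -0.88 to -0.39 in cFLIPKO and from -1.49 to -0.87 in cFLIPKO/TNFKO, and passed 2-fold in cFLIPKO/TNFKO by Actb (-1.49) and by the reference set (-1.02), which lower every gene of that comparison by 0.52 and 0.05. Both differences share the TNFKO array.

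Mt1 and Mt2, the metallothioneins that most cells express, were bright on all arrays. Mt1 had an equal log2 signal of 9.97 in cFLIPKO and TNFKO and 10.06 in cFLIPKO/TNFKO. Mt2 had 10.42 in cFLIPKO, 10.996 in cFLIPKO/TNFKO and 10.71 in TNFKO. The difference of Mt2 from TNFKO was -0.28 in cFLIPKO and 0.29 in cFLIPKO/TNFKO, and the first turned to 0.49 after the lowess trend and the second to -0.23 by Actb. For Mt1 the difference in cFLIPKO reached 0.76 after the lowess trend, which raises bright genes of that array, and in cFLIPKO/TNFKO it was 0.09 and turned to -0.44 by Actb. Mt3, the metallothionein of brain, was dim, with 3.81 in cFLIPKO and an equal value of 3.61 in the other genotypes. Mtf1, the gene of the zinc sensor, was at 6.34 in cFLIPKO, 6.52 in cFLIPKO/TNFKO and 6.75 in TNFKO.

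**Figure D2:**
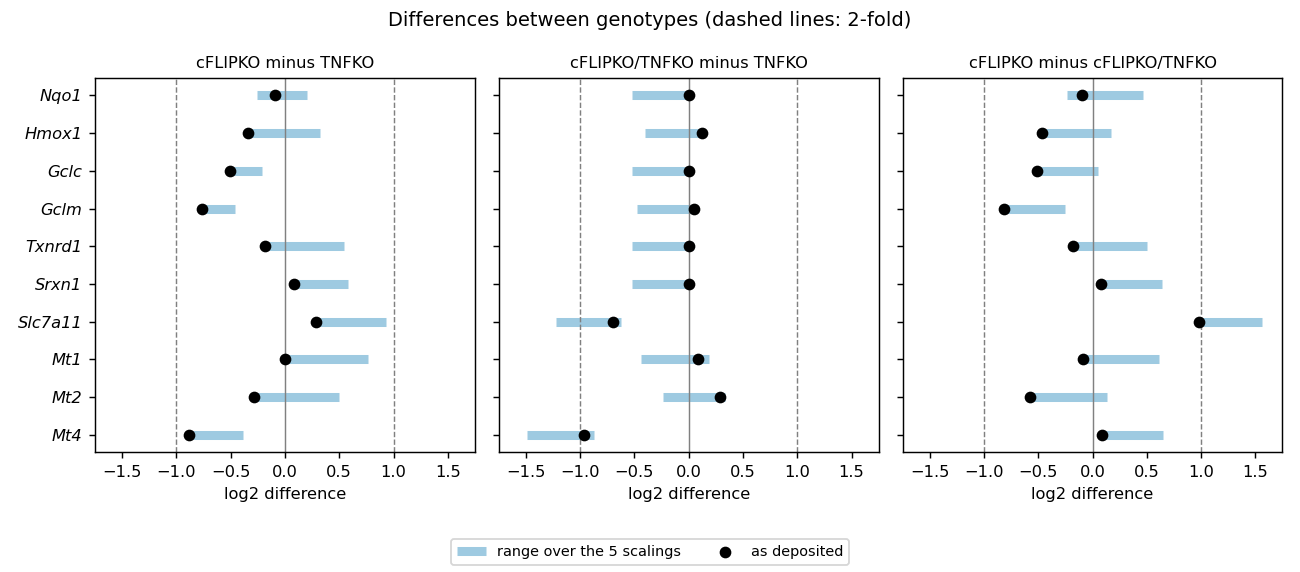
Log2 differences (horizontal axis) of the 10 genes (vertical axis) in the 3 comparisons named above the panels. Points are the deposited values and bars span the lowest and the highest value under the 5 scalings, which is no error between animals. Slc7a11 in the right panel lies at 0.99 as deposited and its bar reaches 1.56, beyond the dashed line of 2-fold.

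Markers of keratinocyte layers and of other skin cells were set beside the 10 genes, and an order over 3 single arrays is a description only. All 6 markers of the granular and cornified layers were at least 2-fold lower in cFLIPKO than in TNFKO, beside 9.15% of all genes, with a median of -2.47. In cFLIPKO/TNFKO 1 of 6 was, beside 0.225% of all genes, with a median of -0.52. The mean log2 signal of the 6 was 8.18 in cFLIPKO, 10.55 in cFLIPKO/TNFKO and 11.15 in TNFKO. Mt4 did not keep the order of these markers. It was higher in cFLIPKO than in cFLIPKO/TNFKO under all 5 scalings, from 0.09 as deposited to 0.65 by Actb. Of 4 adipocyte markers, 3 were at least 2-fold higher in cFLIPKO/TNFKO than in TNFKO, beside 0.629% of all genes. The mean log2 signal of the 4 was 4.67 in cFLIPKO, 6.52 in cFLIPKO/TNFKO and 5.15 in TNFKO. As deposited, Mt2, Hmox1 and Gclm had the same order. The marker means of basal keratinocytes (10.24, 10.85 and 10.83) and Langerhans cells (8.03, 9.28 and 8.83) had it too. The order of cFLIPKO and TNFKO turned for Mt2 and Hmox1 with the lowess trend removed (0.49 and 0.16). That of cFLIPKO/TNFKO and TNFKO turned by Actb, which lowers every gene there by 0.52, for Mt2 (-0.23), Hmox1 (-0.40) and Gclm (-0.48). The 6 fibroblast markers averaged 9.46 in cFLIPKO, 9.95 in cFLIPKO/TNFKO and 9.52 in TNFKO, again highest in cFLIPKO/TNFKO and lowest in cFLIPKO. In cFLIPKO against TNFKO they were split. Col1a1 (0.50), Col3a1 (0.17) and Col1a2 (0.13) were higher, and Dcn (-0.375), Lum (-0.30) and Pdgfra (-0.47) lower. Their median there, -0.08, turned to 0.22 by reference genes, 0.64 with the lowess trend removed and 0.50 after repeated quantile normalization. The part of these cell types in the levels of the 10 genes was not tested.

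Among all genes, the pair of differences from TNFKO placed 8 of the 10 genes inside 1.5-fold for cFLIPKO/TNFKO, with Mt4 and Slc7a11 below. The genes with the differences most like those of Slc7a11, by Euclidean distance over the 2 differences from TNFKO among 11836 protein-coding genes, were Sprr2e (0.40 in cFLIPKO and -0.70 in cFLIPKO/TNFKO, distance 0.12), Krt34 (0.44 and -0.73, distance 0.16) and Krt72 (0.30 and -0.52, distance 0.18). Sprr2e encodes a small proline-rich protein of the cornified envelope, and Krt34 and Krt72 encode keratins of hair and its root sheath. For Mt4 the nearest were Lpo, lactoperoxidase (-0.85 in both, distance 0.13), Zbtb39 (-1.02 and -0.87, distance 0.17) and Endou (-1.07 and -0.88, distance 0.21). Likeness over 3 arrays rests on 2 numbers per gene and is given as a description.

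**Figure D3:**
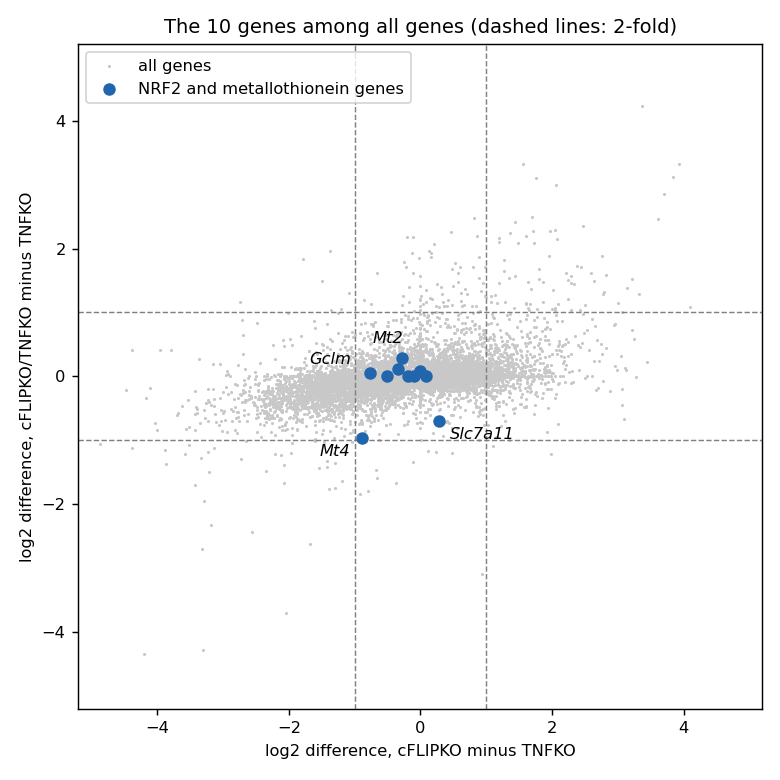
Log2 difference from TNFKO of cFLIPKO (horizontal axis) and of cFLIPKO/TNFKO (vertical axis) for all 24011 genes (grey points), with the 10 genes in blue. Both axes share the TNFKO array. Mt4 and Slc7a11 lie below most genes at -0.97 and -0.70 on the vertical axis, and the other 8 lie near 0 on it.

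Of the regulators of NRF2, 11 of 11 were measured. Nfe2l2 itself had a log2 signal of 8.72 in cFLIPKO, 9.28 in cFLIPKO/TNFKO and 9.40 in TNFKO, a difference of -0.68 in cFLIPKO that turned to 0.05 after the lowess trend. As deposited, Keap1 had an equal value of 7.23 on all 3 arrays, as did Maff (5.53), Mafg (5.66) and Sqstm1 (8.60), the gene of p62, which sequesters KEAP1. In cFLIPKO against TNFKO, Keap1 was at 0.48 with the lowess trend removed and 0.65 after repeated quantile normalization, and Sqstm1 at 0.70 and 0.74. At least 2-fold lower in cFLIPKO than in TNFKO were Cul3, the cullin of the KEAP1 ligase (-1.48), Nfe2l1, a relative of NRF2 that controls proteasome genes (-1.31), and Nfe2l3 (-1.22). These are 3 of 11, beside 9.15% of all genes. By Actb 3 were lower, beside 8.65% of all genes, and by reference genes 2, beside 5.66%. After the lowess trend or repeated quantile normalization 0 of 11 passed 2-fold, and Cul3 was at -0.73 and -0.82. In cFLIPKO/TNFKO the same genes were at -0.35, 0.00 and -0.16, and none of the 11 passed 2-fold. Bach1, a repressor of Hmox1, had 7.39 in cFLIPKO and an equal value of 7.82 in the other genotypes, Bach2 was dim at 3.48 to 3.51, and Mafk was at 6.65 to 6.68.

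Across the pathway lists, 146 measured genes other than the 10 were examined. In cFLIPKO against TNFKO, 2 of them passed 2-fold upward and 32 downward, and 1 was higher and 1 lower in cFLIPKO/TNFKO. These are 1.37% higher and 21.9% lower in cFLIPKO, beside 3.88% and 9.15% of all genes, and 0.685% in each direction in cFLIPKO/TNFKO, beside 0.629% and 0.225%. With the lowess trend removed, 5 were higher and 15 lower in cFLIPKO (10.3% lower, beside 4.95% of all genes), by reference genes 6 and 18 (12.3% lower, beside 5.66%) and after repeated quantile normalization 8 and 17 (11.6% lower, beside 4.84%). Their median difference was -0.13 in cFLIPKO and 0.00 in cFLIPKO/TNFKO. The 2 higher genes were Osgin1, an oxidative stress-induced growth inhibitor (6.57 in cFLIPKO and an equal 5.33 in the other genotypes), and Fth1, the heavy chain of the iron store ferritin (12.51 in cFLIPKO, 11.94 in cFLIPKO/TNFKO and 11.46 in TNFKO). Osgin1 lay outside the rule for naming and was named after its value was seen. Fth1 was above 0 in cFLIPKO under all 5 scalings (1.06 to 1.86) and at 0.49 in cFLIPKO/TNFKO, where it turned to -0.03 by Actb.

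Counts of lower genes in cFLIPKO are to be read against 9.15% of all genes as deposited and 4.95% with the lowess trend removed, and the lists are short. Of 21 glutathione transferases, 5 were at least 2-fold lower in cFLIPKO and 0 in cFLIPKO/TNFKO, with Gstk1 at -2.12 and 0.04, Gstm2 at -1.81 and -0.03, Mgst2 at -1.43 and -0.64 and Gsto1 at -1.05 and -0.50. With the lowess trend removed, 3 were lower and 1 was higher in cFLIPKO, Gsta4 (1.28), and after repeated quantile normalization 3 were lower and 2 higher, Gsta4 (1.04) and Gstm1 (1.06). Of 16 genes of the thioredoxin list, 2 were at least 2-fold lower in cFLIPKO, Prdx2 (-1.06) and Glrx (-1.05). By Actb 2 were, by reference genes and under the lowess trend 0, and after repeated quantile normalization 1, Sesn3 (-1.05). Txnip, an inhibitor of thioredoxin, was at 0.65 in cFLIPKO/TNFKO and at -0.41 in cFLIPKO, and the second value turned to 0.31 after repeated quantile normalization. Of 10 genes that remove superoxide and peroxide, 2 were at least 2-fold lower in cFLIPKO (1 by reference genes, 2 under each other scaling). These were Cat, the gene of catalase (7.42 in cFLIPKO, 9.36 in cFLIPKO/TNFKO and 9.24 in TNFKO), and Gpx3, a secreted glutathione peroxidase that adipocytes also express (4.81, 7.21 and 5.90 in the same order). Gpx3 was at least 2-fold higher in cFLIPKO/TNFKO (1.30), where 3 of 4 adipocyte markers were too. Sod1, the cytosolic superoxide dismutase, was at 0.14 in cFLIPKO and 0.43 in cFLIPKO/TNFKO. Its signal was dim, at 3.30 in cFLIPKO, 3.60 in cFLIPKO/TNFKO and 3.16 in TNFKO, where the median of all values was 4.23.

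The detoxification and zinc transport genes held the largest differences of the pathway lists. Akr1c18, an aldo-keto reductase that inactivates progesterone, had 5.07 in cFLIPKO, 6.79 in cFLIPKO/TNFKO and 8.49 in TNFKO and was lower in both cFLIP-deficient genotypes under each of the 5 scalings. Ptgr1, a reductase of leukotrienes and alkenals, was at -2.40 in cFLIPKO and -0.24 in cFLIPKO/TNFKO, and Cbr2, a carbonyl reductase, at -0.63 and 0.46. In all, 6 of 24 detoxification genes were at least 2-fold lower in cFLIPKO and 1 in cFLIPKO/TNFKO. By Actb 6 were lower in cFLIPKO, by reference genes 4, and after the lowess trend or repeated quantile normalization 3. Of 21 genes of zinc sensing and transport, 7 were at least 2-fold lower in cFLIPKO, 3 with the lowess trend removed, and 0 in cFLIPKO/TNFKO. By reference genes 5 were lower in cFLIPKO and 3 higher, beside 5.66% and 8.2% of all genes. The 3 were Slc30a10 (1.18), Slc30a2 (1.12) and Slc39a14 (1.02). This scaling raises every gene of the comparison by 0.30, and as deposited they were at 0.88, 0.82 and 0.72, short of 2-fold. Slc39a14 was also at 1.06 after repeated quantile normalization. Slc39a8, the gene of the zinc importer ZIP8, had 5.47 in cFLIPKO, 8.64 in cFLIPKO/TNFKO and 9.10 in TNFKO, and Slc30a4, which encodes the zinc transporter ZnT4, had 6.32, 8.16 and 8.34 in the same order. Slc30a1, an MTF-1 target that exports zinc, had 6.94, 7.67 and 8.13, so it was lowest in cFLIPKO while Mt1 was equal there to TNFKO.

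Of 9 genes that supply NADPH, 3 were at least 2-fold lower in cFLIPKO and 0 in cFLIPKO/TNFKO. Among the 3 were Me1, malic enzyme (-1.60), and Idh1, isocitrate dehydrogenase (-1.57). By Actb 3 were lower in cFLIPKO and by reference genes 2. With the lowess trend removed 1 was lower in cFLIPKO, Idh1 (-1.08), and 1 higher, Pgls (1.11). Of 15 genes of heme and iron handling, 4 were at least 2-fold lower in cFLIPKO and 0 in cFLIPKO/TNFKO. The iron importer Slc11a2 was at -1.92 in cFLIPKO and Aco1, the iron-sensing aconitase, at -1.17. By reference genes 1 was lower in cFLIPKO, by Actb 3, with the lowess trend removed 3 and after repeated quantile normalization 4. Of 14 producers of reactive oxygen species, 0 passed 2-fold in either genotype as deposited, and 1 was higher in cFLIPKO after repeated quantile normalization, Cyba (1.16). Cyba, a subunit of the phagocyte NADPH oxidase, was at 0.66 in cFLIPKO and 0.56 in cFLIPKO/TNFKO, and Xdh, xanthine dehydrogenase, at -0.95 and 0.16. Cybb, the catalytic subunit of that oxidase, was at -0.07 and 0.47, and Duoxa1, a maturation factor of a dual oxidase, at -0.70 and -0.42.

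**Figure D4:**
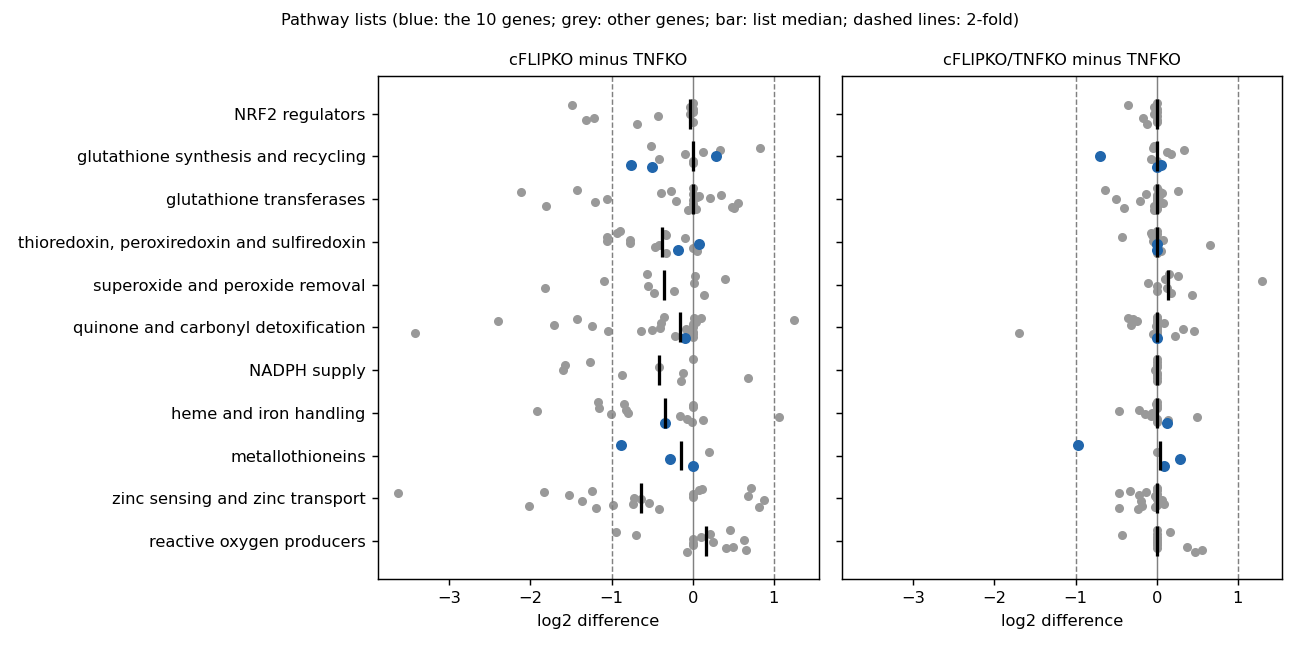
Log2 difference from TNFKO (horizontal axis) in cFLIPKO (left) and cFLIPKO/TNFKO (right) of every measured gene of the 11 pathway lists (rows). Each point is 1 gene on 1 pair of arrays, the 10 genes are in blue, and black bars are list medians. Points below -1 are frequent in the left panel, down to -3.63 for Slc39a8, and the right panel holds 1 such point, Akr1c18 at -1.70.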

How the data were processed

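RNA of epidermis pooled within each genotype was hybridised to Affymetrix Mouse Gene 2.0 ST arrays, 1 array each of cFLIPKO, cFLIPKO/TNFKO and TNFKO. The authors deposited log2 values, for which the methods give RMA background correction and quantile normalization. Probes were summarised by ENTREZ gene through a custom chip definition (version 22). Repeating the quantile normalization changed the values, so the arrays as deposited did not share the same distribution. Genes at least 2-fold lower in cFLIPKO than in TNFKO fell from 9.15% as deposited to 4.84%. The reason was not tested. The log base is not stated and was taken from the deposited values, which run from 2.48 to 13.82. Genotypes were read from the genotype labels, since 1 sample title differs from its other labels. Gene names came from the platform annotation, and of 24973 values 958 had none. The 10 genes and the lists were chosen with earlier results of these data known.

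Log2 differences were taken without a filter, and genes past 2-fold were counted. The methods' analysis of variance needs replicate arrays and was left out. Precision is limited by the number of arrays. All measured NRF2 regulators and metallothioneins, and in every other list the 2 genes furthest from 0 in each comparison with TNFKO, were to be named, with the 3 nearest genes of the member highest and the member lowest in cFLIPKO against TNFKO (Slc7a11 and Mt4). Other list genes, such as Slc3a2, Gss, Gsr, Mtf1, Osgin1, the markers and those named only under another scaling, were named after their values were seen. Alternatives were the 4 other scalings (lowess share 0.3, 3 iterations; 8 of 10 reference genes measured), thresholds of 1.5-fold and 3-fold, a floor at the 25th percentile and leaving out genes below the median signal. The steps were tested on simulated data. Scripts ran in Python 3.11.15 with numpy 2.4.6 and pandas 2.3.3, the trend came from statsmodels 0.14.6 and plots from matplotlib 3.10.9.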

Additional observations from a re-analysis of the deposited data

How the results depend on the processing

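With 1 array per genotype, no setting could leave out a replicate, and the values carry no error between animals. Scaling by Actb shifted the median of all genes by -0.52 in cFLIPKO/TNFKO against TNFKO and to 0.56 in cFLIPKO against cFLIPKO/TNFKO. Reference genes shifted the median of cFLIPKO to 0.30 against TNFKO and to 0.35 against cFLIPKO/TNFKO. Of all genes, 8.2% were then at least 2-fold higher and 5.66% lower in cFLIPKO than in TNFKO, beside 3.88% and 9.15% as deposited.

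The median difference of the 10 genes in cFLIPKO against TNFKO was -0.20 by Actb, 0.066 by reference genes, 0.29 with the lowess trend removed and 0.22 after repeated quantile normalization. In cFLIPKO/TNFKO against TNFKO it was -0.52 by Actb, -0.0524 by reference genes and 0.0205 after repeated quantile normalization. In cFLIPKO against cFLIPKO/TNFKO it was -0.14 as deposited and turned to 0.42, 0.21, 0.24 and 0.28 under the same 4 scalings. At least 2-fold higher in cFLIPKO than in cFLIPKO/TNFKO was 1 of the 10 genes, Slc7a11, under each of the 4 scalings. Of all genes, 14.3% were by Actb, 8.6% by reference genes, 3.49% with the lowess trend removed and 3.84% after repeated quantile normalization. At 1.5-fold as deposited it was again Slc7a11, beside 10.1%. At least 2-fold lower in cFLIPKO/TNFKO than in TNFKO were 2 genes by Actb, beside 1.83% of all genes, and 1 by reference genes, beside 0.267%. At 1.5-fold as deposited 2 were, beside 1.04%. At 1.5-fold, 2 genes were lower in cFLIPKO than in TNFKO, beside 15.5%, and 1 than in cFLIPKO/TNFKO, beside 15.3%. With no gene past 2-fold and all 10 above the median signal, a 3-fold threshold, the floor and leaving out dim genes could not change a count and say nothing of stability. One sign held under all 5 scalings for 5 of the 10 genes in cFLIPKO and 2 in cFLIPKO/TNFKO against TNFKO, and for 4 between the cFLIP-deficient genotypes. A gene with equal deposited values could not be counted here, which held for 1 of the 10 in cFLIPKO and 4 in cFLIPKO/TNFKO against TNFKO. The share over all genes was not computed, so these counts only describe the 10 genes.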
